A study of Mus musculus with 6 samples.

Results

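Of the 10 genes of the pyruvate dehydrogenase switch and of mitochondrial pyruvate entry, 9 were measured on the arrays, out of 30142 genes in all. They are the kinase genes Pdk1, Pdk2, Pdk3 and Pdk4, the phosphatase genes Pdp1 and Pdp2, the enzyme subunit gene Pdha1, the pyruvate carboxylase gene Pcx and the carrier gene Mpc1. Mpc2, the partner of Mpc1, was on no probe set that the platform annotation gives a single gene symbol, and it was not analysed here. Each of the 9 genes had 1 such probe set. The group was put together from known roles, with Pdk4 included because it was lower in every metastatic tumour. The metastatic minus primary differences of these genes are therefore a description, without a test.

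The arrays came from late tumours of 3 mice, C1M3, C1M5 and C2M3, that carried ID8-VEGF cells. ID8 is a line from the surface epithelium of the mouse ovary, and this variant of it was engineered to make vascular endothelial growth factor (VEGF). The cells were injected below the ovarian bursa, the membrane around the ovary, and each mouse gave 1 primary and 1 metastatic tumour. All 6 tumours thus share the cell line and its added VEGF, and no untreated or tumour-free tissue was profiled. Strain, age, any surgery and the sites of the metastatic tumours are not given in the labels, and the source name of the primary tumour of C2M3 names another mouse than its title and donor label, which were followed. Sets of 3 values stand in the order C1M3, C1M5 and C2M3 throughout. They are log2 intensities and compare tumours for 1 gene, not genes with each other.

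Pyruvate made by glycolysis enters the mitochondrion through a carrier formed by the Mpc1 and Mpc2 proteins. Inside, the pyruvate dehydrogenase complex turns it into acetyl-CoA, or pyruvate carboxylase turns it into oxaloacetate. The Pdk kinases phosphorylate the E1 alpha subunit, the product of Pdha1, and switch the complex off, and the Pdp phosphatases switch it back on. Pdk1 is known as a target of the hypoxia-inducible factor HIF, and Pdk4 as a gene induced by fasting through PPAR and FOXO factors and by glucocorticoids. In fat cells pyruvate carboxylase supplies oxaloacetate for citrate export and lipid synthesis.

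Of 8 ovarian surface and mesothelial markers, the keratin genes Krt8, Krt18 and Krt19 had log2 intensities of at least 11.20 on all 6 arrays, and Upk3b, Wt1 and Lrrn4 of at least 8.76. Msln ranged from 7.15 to 11.13, and Krt7 from 5.59 to 7.58, which on both arrays of C1M3 was under the highest background probe set (6.34). The mean of the 8 lay between 11.05 and 12.25 in primary and between 10.72 and 12.36 in metastatic tumours. The primary tumour of C1M3 stood apart, with the lowest mean correlation to the other arrays (0.969, against 0.971 to 0.979) and a mean of 6.19 over 9 macrophage genes, against 7.81 to 8.68 on the other arrays. The mean of the 13 measured fat cell genes was high on 2 arrays. It was 10.79 in the primary tumour of C2M3 and 8.90 in that of C1M5, against 5.77 to 6.15 on the other 4, while the brown fat genes Ucp1 (3.48 to 3.64) and Cidea (5.57 to 6.74) did not follow this order. Skeletal muscle, liver and pancreatic acinar lists had means of at most 5.26 on every array, although Cela1 of the acinar list ranged from 5.86 to 11.32, highest in both tumours of C1M5. These are bulk tumours, in which fewer cells of a type and less RNA per cell cannot be told apart.

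The sequences just upstream of the starts of the kinase genes Pdk4, Pdk2 and Pdk1 and of both starts of Pcx are shown because these genes had 3 different patterns across the tumours, described in turn in the later paragraphs. Each is the 250 bases that end right before the annotated start, 5′ to 3′ on the strand of the gene, from RefSeq on GRCm38.p6. Capitals mark the letters CCAAT and the core of the HIF site on either strand. That core is spelled ACGTG in one form and the other form is GCGTG.
Pdk4, chr6:5496279-5496528, minus strand: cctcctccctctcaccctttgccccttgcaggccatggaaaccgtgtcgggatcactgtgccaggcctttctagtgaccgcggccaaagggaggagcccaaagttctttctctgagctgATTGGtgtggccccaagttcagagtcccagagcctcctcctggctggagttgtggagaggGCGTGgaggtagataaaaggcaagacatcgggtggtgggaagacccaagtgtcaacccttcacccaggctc
Pdk2, chr11:95041372-95041621, minus strand: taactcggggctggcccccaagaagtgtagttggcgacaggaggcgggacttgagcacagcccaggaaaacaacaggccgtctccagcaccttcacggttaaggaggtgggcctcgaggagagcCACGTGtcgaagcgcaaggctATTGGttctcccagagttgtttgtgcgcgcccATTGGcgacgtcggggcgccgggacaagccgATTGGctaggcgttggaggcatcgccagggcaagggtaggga
Pdk1, chr2:71872974-71873223, plus strand: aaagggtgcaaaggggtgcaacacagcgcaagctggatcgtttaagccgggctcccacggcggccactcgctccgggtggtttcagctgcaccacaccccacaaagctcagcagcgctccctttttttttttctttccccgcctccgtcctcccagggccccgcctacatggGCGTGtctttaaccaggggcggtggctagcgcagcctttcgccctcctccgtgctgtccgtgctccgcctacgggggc
Pcx, first start, chr19:4510222-4510471, plus strand: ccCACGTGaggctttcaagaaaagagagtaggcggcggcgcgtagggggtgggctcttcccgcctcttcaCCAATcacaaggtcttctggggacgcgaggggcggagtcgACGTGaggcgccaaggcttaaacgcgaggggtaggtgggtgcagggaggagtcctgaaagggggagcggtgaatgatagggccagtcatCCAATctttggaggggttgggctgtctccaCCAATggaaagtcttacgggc
Pcx, second start, chr19:4594069-4594318, plus strand: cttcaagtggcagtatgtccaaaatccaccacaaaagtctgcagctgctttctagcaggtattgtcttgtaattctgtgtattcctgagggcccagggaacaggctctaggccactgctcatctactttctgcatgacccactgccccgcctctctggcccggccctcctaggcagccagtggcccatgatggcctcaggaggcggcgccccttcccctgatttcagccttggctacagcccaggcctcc

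The window of Pdk4 held 6 CpG dinucleotides, the same as the median of all 32851 windows of this length in the table, while those printed for Pdk2 and Pdk1 held 19 each. The table gives Pdk2 and Pdk1 another start each, which are not printed, with 12 CpG dinucleotides for Pdk2 and 2 for Pdk1. The first start of Pcx had 16 and the second 4. Among the printed windows, a HIF core in either spelling was present in those of Pdk4 (1), Pdk1 (1), Pdk2 (2) and the first start of Pcx (3). Of the windows not printed, those of Pdk3 (4), Pdha1 (3), Pdp2 (2), Mpc2 (1) and the first start of Mpc1 (1) also held it. It was found in 38.6% of all windows. The 2 matches of Pdk2 overlap in an E-box, the letters CACGTG, found in 6.02% of all windows, and so do 2 of the 3 matches of Pcx. The letters CCAAT occurred 3 times in the printed windows of Pdk2 and of the first start of Pcx and 1 time in that of Pdk4, and in 33.8% of all windows. Neither CCAAT nor a HIF core was found upstream of the second start of Pcx or of the other starts of Pdk2 and Pdk1. The table held 13 starts of 9 of the 10 genes, without Pdp1, and none of these windows held TATAAA (12.4% of all windows) or the forkhead letters TGTTTAC (3.17%). The nuclear receptor half-site AGGTCA (14.0%) was found in 1 window, at the second start of Mpc1. These matches are letters only, since no binding or chromatin was measured here.

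Pdk4, the kinase linked to fasting and fat use, was lower in the metastatic than in the primary tumour of every mouse. Its log2 intensity was 8.65, 8.53 and 8.87 in the primary tumours of C1M3, C1M5 and C2M3, and 7.59, 6.52 and 7.44 in their metastatic tumours. The primary tumours lay close together and the metastatic ones were spread more widely, and the groups did not overlap, with a gap of 0.94 between the lowest primary and the highest metastatic value. The mean was 8.68 ± 0.17 (SD, n = 3) for primary against 7.18 ± 0.58 for metastatic tumours, which differ by -1.50 (SE 0.31), or 2.83-fold in linear intensity. Within C1M3, C1M5 and C2M3 the differences were -1.06, -2.02 and -1.43. Over all genes 8 were lower by at least 2-fold in all 3 mice (0.0265%), and Pdk4 is the only one of the 9 genes here among them. Since Pdk4 was chosen because it was lower in every metastatic tumour, nothing is read from this share. The fat cell list had median differences of 0.14, -2.86 and -6.13 in the 3 mice. The list of ovarian granulosa, theca and luteal genes had 8 of its 10 genes measured, with means of 6.41, 6.30 and 6.91 in primary tumours against 6.35, 5.60 and 6.60 in metastatic ones. Of these genes Inha, Amh and Star were lower in all 3 mice, Inha with differences of -0.52, -3.32 and -0.43. In all 6 averaged lower, while Fshr and Cyp11a1 averaged higher, by 0.22 and 0.07. Cyp17a1 and Hsd3b1 were higher within C1M3, by 0.33 and 0.17. Amh ranged from 3.73 to 5.15 and the granulosa factor gene Foxl2 from 2.97 to 3.06, both under the highest background probe set (6.34). All values of Fshr, Cyp17a1 and Hsd3b1 also lay under it, as did those of Cyp11a1 except in the metastatic tumour of C2M3 (6.35). Only Inha and Star lay above it on every array, and Inha had the widest range, 6.08 log2 units. The mean of the list thus rests largely on Inha and on dim values. The mean of the list correlated with Pdk4 with r = 0.75 over the 6 arrays and with r = -0.58 over the 4 arrays without the metastatic tumour of C1M5 and the primary tumour of C2M3. For the mean of the fat cell list r was 0.65 and 0.54 over the same arrays. The part of fat cells and of these ovarian cells in the values of Pdk4 was not tested.

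Pdk2, the most widely expressed of the kinases, had the profile most like that of Pdk4 among the other 8 genes. It had values of 8.27, 8.26 and 8.90 in the primary tumours and of 8.07, 7.15 and 7.70 in the metastatic tumours of the same mice. The groups did not overlap, but the gap was only 0.19 and the difference within C1M3 was small. The differences within the mice were -0.19, -1.12 and -1.20, with a mean of -0.84 (SE 0.31). Across the 6 arrays Pdk2 and Pdk4 correlated with r = 0.94, and with r = 0.87 over the 4 arrays left without the metastatic tumour of C1M5 and the primary tumour of C2M3. The 6 arrays come in pairs from 3 mice, so that these values describe the arrays and carry no test.

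**Figure D1:**
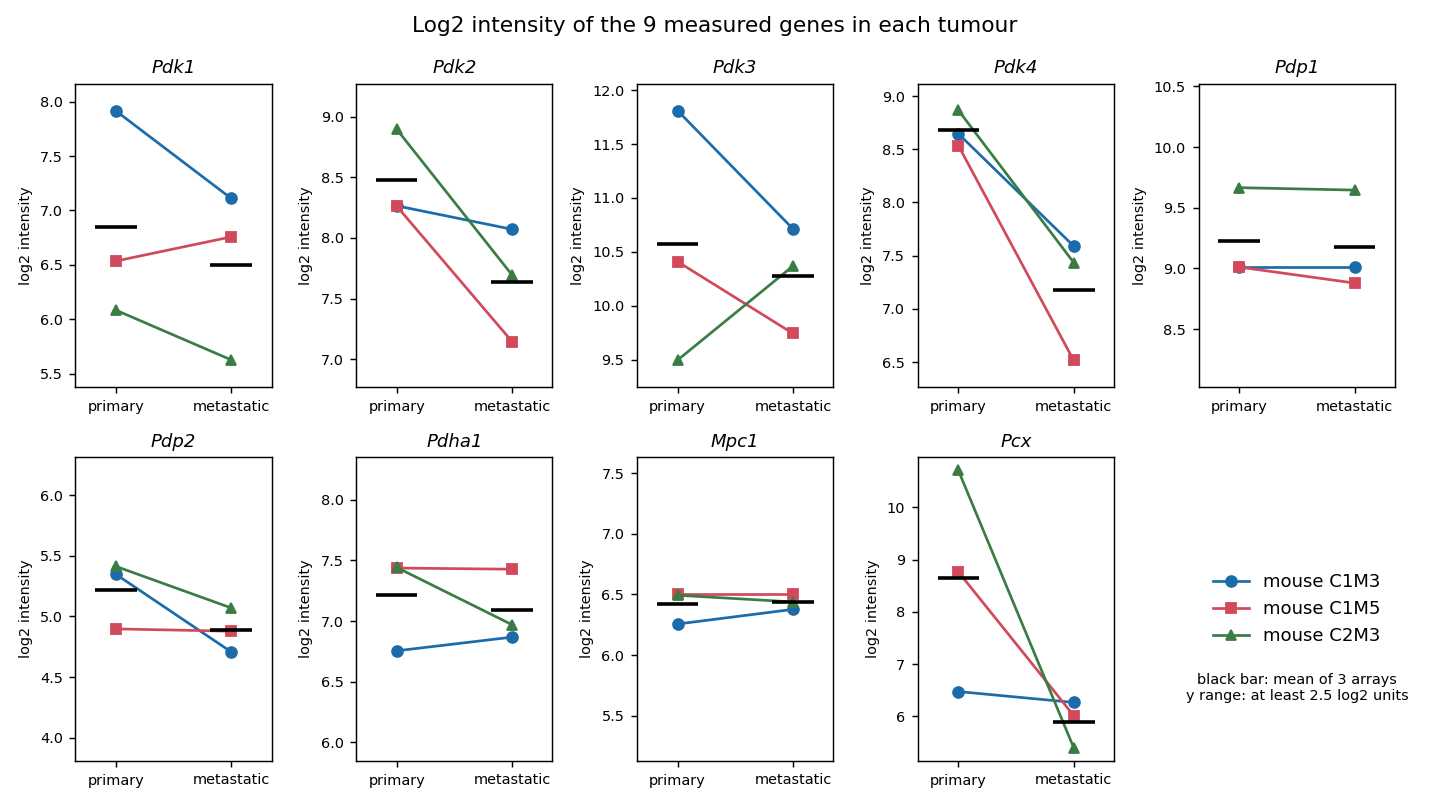
Log2 intensity (y axis, each panel with its own range of at least 2.5 units) of the 9 measured genes in the primary and the metastatic tumour (x axis) of each mouse, with lines joining tumours of a mouse and black bars for the mean of 3 arrays. Pdk4, Pdk2 and Pcx have no metastatic value above a primary value, while Pdp1 and Mpc1 run almost flat.

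Among the 3029 other genes that passed the level and range limits of the likeness search, Pdk2 ranked 3 by its correlation with Pdk4 over the 6 arrays. The transcription factor genes Maz (r = 0.95) and Usf2 (r = 0.94) ranked above it, and the kinase gene Tesk1 (r = 0.92) and the nuclear receptor coactivator gene Ncoa1 (r = 0.92) just below. Maz was lower by 0.60, 0.81 and 0.55 within the 3 mice, a smaller shift than that of Pdk4. Usf2 had its widest differences in the same mice as Pdk2, with -0.14, -1.61 and -1.34. These genes were picked for their high r, so its size is fixed by the search, and without the 2 arrays farthest from the median of Pdk4 the r ranged from 0.69 for Ncoa1 to 0.96 for Maz.

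Pdk1, the kinase under HIF control, did not follow the tissue. Its log2 intensity was 7.92, 6.54 and 6.09 in primary tumours against 7.11, 6.76 and 5.63 in metastatic ones. Both tumours of C1M3 were highest and both of C2M3 were lowest, and the groups overlapped. Both values of C2M3 lay under the highest background probe set (6.34). The differences within the mice were -0.80, 0.22 and -0.46, a mean of -0.35 (SE 0.64), which turned to 0.19 without the primary tumour of C1M3. The mean of 12 HIF targets, among them the glucose transporter gene Slc2a1 and Vegfa (the cells were made to produce VEGF), took the same order across mice, with 12.19, 10.81 and 9.59 in primary tumours against 10.93, 10.83 and 8.16 in metastatic ones. Pdk1 correlated with this mean with r = 0.95 over the 6 arrays, and with 0.88 over 4 arrays without the primary tumour of C1M3 and the metastatic tumour of C2M3. The mean of the genes that supply pyruvate or exchange it with lactate had a higher r with Pdk1, 0.989 and 0.988 over the same arrays. Ldha is in both lists. The macrophage list ran the other way, with r = -0.94. All 9 of its 9 genes were measured, and its mean ranged from 6.19 to 8.55 in primary and from 7.81 to 8.68 in metastatic tumours. The parts of HIF and of macrophages in the pattern of Pdk1 were not tested.

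Pdk3, a kinase gene on the X chromosome, varied between arrays as much as Pdk1 and with another order. The primary tumours of C1M3, C1M5 and C2M3 had 11.81, 10.41 and 9.49, and the metastatic tumours 10.71, 9.74 and 10.37. Of all arrays the primary tumours of C1M3 and C2M3 were the highest and the lowest, so the metastatic values lay inside the primary range. It was lower in the metastatic tumour by 1.10 in C1M3 and by 0.67 in C1M5, and higher by 0.87 in C2M3. The mean difference of -0.30 (SE 0.66) became 0.32 without the primary tumour of C1M3.

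The phosphatase genes had narrower ranges over the arrays than the kinase genes. Pdp1, the calcium-stimulated phosphatase, had 9.01, 9.01 and 9.67 in primary tumours against 9.01, 8.88 and 9.65 in metastatic ones. Both tumours of C2M3 were above all others, and the tumours of a mouse differed by 0.00, -0.13 and -0.02, which is less than the step between C2M3 and the other mice. The mean difference was -0.05 (SE 0.29), with a 95% interval from -0.80 to 0.70. On 3 arrays the value of Pdp1 was exactly the same, and 51.4% of all genes had a value shared by at least 2 arrays, so an exact 0 need not mean equal RNA. Pdp2, the phosphatase that responds to insulin, was dim at 5.35, 4.90 and 5.41 in primary tumours against 4.71, 4.88 and 5.07 in metastatic ones, close to the median of 5.04 over all genes. It was lower within each mouse, by 0.64, 0.02 and 0.34, and the groups overlapped. All values of Pdp2 lay under the highest background probe set (6.34).

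**Figure D2:**
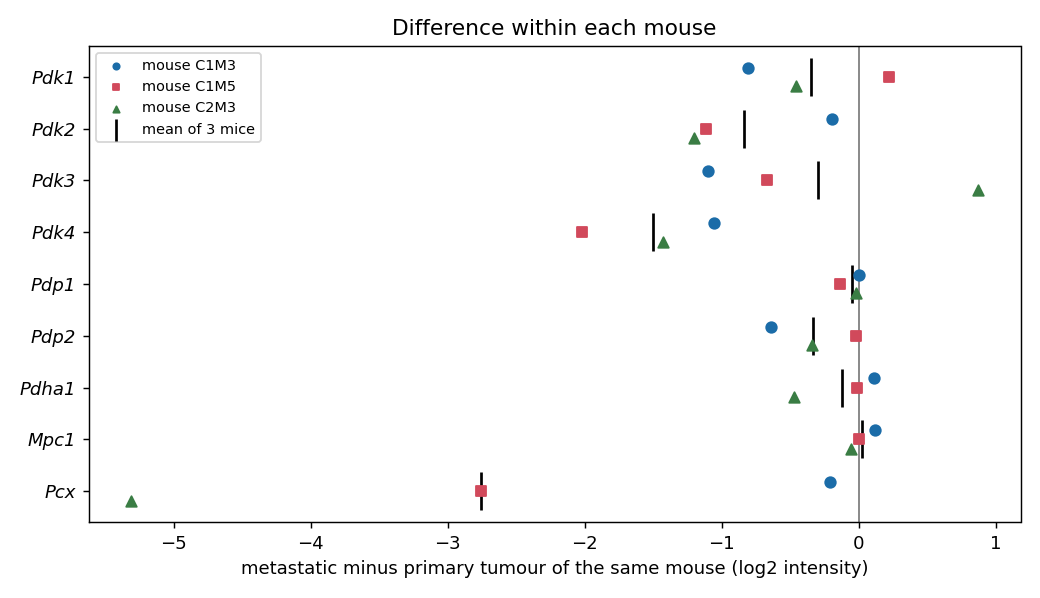
Metastatic minus primary log2 intensity within each mouse (x axis) for the 9 genes (rows), with a black bar for the mean of 3 mice. Pdk4, Pdk2, Pdp2 and Pcx lie left of 0 in all 3 mice, and Pcx spreads from -0.21 to -5.31.

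The target of the switch and the carrier had narrow ranges. Pdha1, which encodes the E1 alpha subunit, had 6.75, 7.44 and 7.44 in primary tumours against 6.87, 7.43 and 6.97 in metastatic ones. Both tumours of C1M3 were low, and the difference was -0.47 within C2M3, against 0.11 in C1M3 and -0.01 in C1M5. The mean difference was -0.12 (SE 0.26). Mpc1 ranged over 0.25 log2 units in all, with 6.26, 6.50 and 6.49 in primary tumours against 6.38, 6.50 and 6.44 in metastatic ones. In the primary tumour of C1M3 it lay under the highest background probe set (6.34). Its mean difference was 0.02 (SE 0.09), with a 95% interval from -0.20 to 0.24, and it turned to -0.08 when each array was centred on its median.

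Pcx, the route from pyruvate to oxaloacetate, had the widest range of the group. Its values were 6.47, 8.76 and 10.71 in the primary tumours of C1M3, C1M5 and C2M3, against 6.26, 6.01 and 5.40 in their metastatic tumours. The primary tumours of C2M3 and C1M5 stood far above the other 4 arrays, and the groups did not overlap because the primary tumour of C1M3 still lay 0.21 above the highest metastatic value. All metastatic values of Pcx lay under the highest background probe set (6.34), so this gap and the differences rest partly on dim values. The mean difference was -2.76 (SE 1.12), or 6.76-fold, made of -0.21, -2.75 and -5.31 in the mice, and it was -1.48 without both tumours of C2M3 and -4.03 without both of C1M3. The mean of the fat cell list took the values 6.04, 8.90 and 10.79 in primary tumours against 6.15, 6.13 and 5.77 in metastatic ones, and 13 of its 14 genes were measured. Its defining gene Adipoq, which encodes adiponectin, had 5.80, 10.59 and 13.21 in primary and 5.75 to 6.09 in metastatic tumours. The 2 arrays with the highest fat cell mean were the 2 arrays highest in Pcx. The same 2 arrays had the highest mean over the 8 smooth muscle genes, which was 6.07, 7.44 and 8.17 in primary tumours against 6.54, 6.48 and 6.61 in metastatic ones. The mean of 8 endothelial genes also peaked in the primary tumour of C2M3, with 6.49, 7.36 and 8.77 in primary tumours against 7.40, 6.31 and 7.53 in metastatic ones. Over the 6 arrays Pcx correlated with these means with r = 0.99 for fat cells, 0.92 for smooth muscle and 0.73 for endothelium, and over the 4 arrays without those primary tumours of C1M5 and C2M3 with 0.80, -0.73 and -0.52. The part of these cells in the values of Pcx was not tested.

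The genes with the profile most like Pcx were Acsm3 (r = 0.996), the growth hormone receptor gene Ghr (r = 0.994), the ferrochelatase gene Fech (r = 0.994), the choline phosphotransferase gene Chpt1 (r = 0.994) and the fatty acid oxidation gene Hadh (r = 0.991). All 5 were highest in the primary tumour of C2M3 and second in that of C1M5. Over the 4 arrays without those 2 tumours, r lay between 0.77 for Hadh and 0.95 for Fech. Within C1M3 the 5 genes differed by -0.22 to -0.09, while within C2M3 they differed by -3.66 to -1.10. Pcx correlated with Pdk4 with r = 0.71 and with Pdk1 with r = -0.22 over the 6 arrays.

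**Figure D3:**
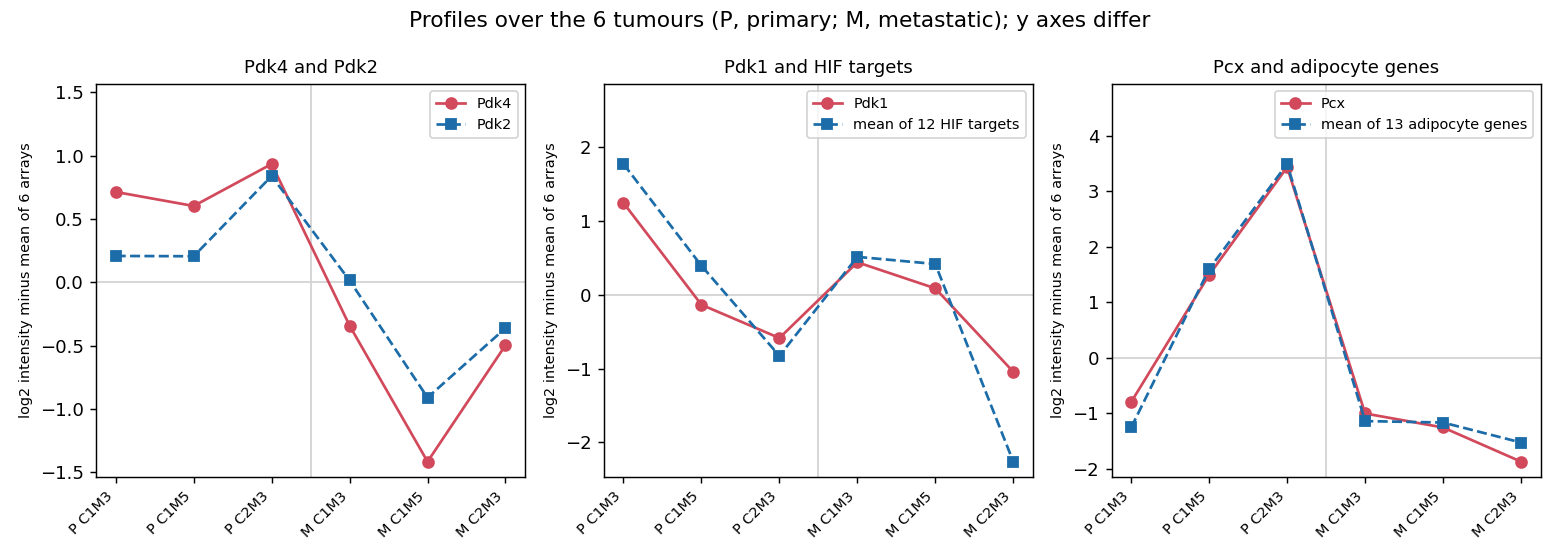
Log2 intensity minus the mean of the 6 arrays (y axis, different range in each panel) over the primary (P) and metastatic (M) tumours (x axis), for Pdk4 with Pdk2, Pdk1 with the mean of 12 HIF targets, and Pcx with the mean of 13 adipocyte genes. Pdk4 and Pdk2 lie lower in all metastatic tumours, Pdk1 is highest in C1M3 and lowest in C2M3 in both tissues, and Pcx stands high in the primary tumours of C1M5 and C2M3.

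Counted together, 8 of the 9 genes averaged lower in metastatic tumours and 1 higher, with a median difference of -0.33, while 13528 of all 30142 genes had a lower mean and the median of all genes was 0.02. By limma, 0 of the 9 genes and 0 of 30142 genes (0.0% in each direction) had an adjusted p under 0.05. At an unadjusted p under 0.05 there were 2 of 9 lower, Pdk4 and Pdk2, against 1.33% of all genes lower and 2.88% higher. Groups did not overlap for 3 of 9, all lower, against 2.84% of all genes lower and 4.79% higher, and 4 of 9 were lower in all 3 mice, against 8.64% (11.1% of all genes were higher in all 3). Among genes above the median level, where all 9 lie, 10.6% were lower in all 3 mice. Since Pdk4 was chosen on this contrast, nothing is read from these counts.

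The other genes of the pathway did not pass the test either. Of 110 measured genes in 9 lists, 0 had an adjusted p under 0.05 by limma, and the smallest adjusted p was 0.842. The counts of unadjusted p under 0.05 given for these lists are all on the lower side, where the share over all genes was 1.33%. The remaining genes of the pyruvate dehydrogenase complex, its lipoylation and its phosphatase were lower on average in 8 of 8 cases, with a median difference of -0.16. Of them 2, Pdhb and Lias, had an unadjusted p under 0.05 by limma. Pdhb, the E1 beta subunit gene, had 11.98, 11.98 and 12.32 in primary tumours against 11.86, 11.76 and 11.72 in metastatic ones, which differ by -0.31 (SE 0.11). The lipoate synthase gene Lias differed by -0.23 (SE 0.06), the gene of the phosphatase regulatory subunit Pdpr by -0.17 (SE 0.13) and the E2 gene Dlat by -0.16 (SE 0.07). These shifts are small beside that of Pdk4. The groups did not overlap for Pdhb, Lias and Dlat, which was so for 2.84% of all genes on the lower side. For Dlat the primary values were exactly the same (6.34), at the level of the highest background probe set (6.34). Its metastatic values all lay under that probe set, so its gap and SE rest on tied and dim values.

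In the tricarboxylic acid cycle, which takes up the acetyl-CoA and the oxaloacetate, 13 of 16 measured genes averaged lower in metastatic tumours, at a median of -0.23. The difference was below 0 in all 3 mice for 7 of the 16. That held for 8.64% of all genes and for 10.6% of those above the median level. By limma, 4 of the 16, Cs, Mdh2, Sdhd and Dlst, had an unadjusted p under 0.05, against 1.33% of all genes. Dlst differed by -0.34 (SE 0.10). The citrate synthase gene Cs, whose enzyme joins the products of both pyruvate routes, had 12.36, 12.44 and 12.17 in primary tumours against 11.77, 11.55 and 11.33 in metastatic ones. All metastatic values of Cs lay below all primary values, and the difference of -0.77 (SE 0.14) had an adjusted p of 0.842 by limma. The malate dehydrogenase gene Mdh2 differed by -0.73 (SE 0.17), the succinate dehydrogenase subunit gene Sdhd by -0.55 (SE 0.15) and the isocitrate dehydrogenase subunit gene Idh3g by -0.41 (SE 0.20). For Cs and Mdh2 the differences within mice ran from -0.99 to -0.48.

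Genes that supply pyruvate or exchange it with lactate had a median difference of -0.19, with 10 of 12 lower on average and 0 at an unadjusted p under 0.05. The transaminase gene Gpt2 differed by -0.49 (SE 0.41), the lactate dehydrogenase gene Ldha by -0.43 (SE 0.56), the transporter chaperone gene Bsg by -0.27 (SE 0.61) and the monocarboxylate transporter gene Slc16a7 by -0.26 (SE 0.24). The values of Ldha, at 10.62, 9.88 and 9.09 in primary tumours against 9.88, 9.88 and 8.55 in metastatic ones, were highest in the primary tumour of C1M3 and lowest in both tumours of C2M3, as those of Pdk1 were. The median of this list turned to 0.06 without the primary tumour of C1M3.

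Genes that use oxaloacetate or export citrate had a median difference of -0.01, with 10 of 16 lower on average. Of them 2, Slc25a1 and Slc25a10, had an unadjusted p under 0.05 by limma. Pck1, which makes phosphoenolpyruvate from oxaloacetate, had 4.98, 6.34 and 9.07 in primary tumours against 5.24, 5.24 and 5.07 in metastatic ones, highest in the same 2 primary tumours as Pcx and the fat cell list. The mitochondrial citrate carrier gene Slc25a1 had 9.97, 9.94 and 10.90 in primary tumours against 9.52, 9.19 and 9.13 in metastatic ones. Its groups did not overlap, and the difference was -0.99 (SE 0.31). The dicarboxylate carrier gene Slc25a10 differed by -0.96 (SE 0.33) and the biotinidase gene Btd, whose enzyme recycles the cofactor of pyruvate carboxylase, by -0.32 (SE 0.17).

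**Figure D4:**
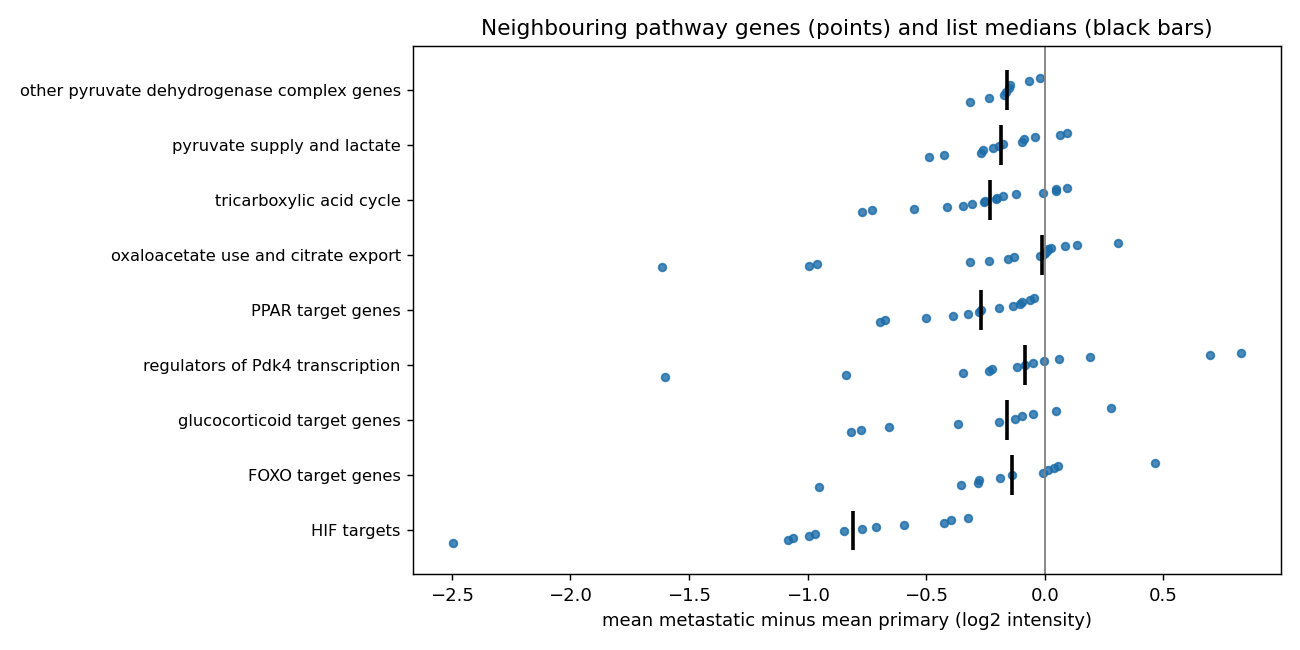
Mean metastatic minus mean primary log2 intensity (x axis) of each measured gene (points) in 9 pathway lists (rows), with the list median as a black bar. The HIF targets have the lowest median, -0.81, and the tricarboxylic acid cycle genes lie between -0.77 and 0.10.

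Genes tied to the known control of Pdk4 formed 3 further groups, the targets of PPAR, of glucocorticoids and of FOXO factors, beside the regulators themselves. All 13 measured PPAR targets averaged lower in metastatic tumours, at a median of -0.27. By limma 1 gene, Ehhadh, had an unadjusted p under 0.05, and its values (4.18 to 4.95) all lay under the highest background probe set (6.34). The carnitine palmitoyltransferase gene Cpt2 differed by -0.69 (SE 0.40), the trifunctional protein gene Hadha by -0.68 (SE 0.26), Angptl4 by -0.50 (SE 0.58) and Ehhadh by -0.39 (SE 0.15). Cpt2 was higher by 0.28 within C1M3 and lower by 1.17 and 1.19 in C1M5 and C2M3, so it did not share the difference of Pdk4 in C1M3. The median of the PPAR list within C1M3 was 0.00.

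Of 13 measured regulators of Pdk4, 9 had a lower mean, with a median of -0.08. By limma 1 of them, Foxo3, had an unadjusted p under 0.05. The groups of Foxo3 did not overlap, and it differed by -0.26, -0.33 and -0.45 within the mice, a mean of -0.35 (SE 0.09). Pparg, the fat cell regulator, had 5.09, 7.06 and 8.58 in primary tumours against 5.42, 5.42 and 5.10 in metastatic ones, again highest in the 2 primary tumours that were high in Pcx. The coactivator gene Ppargc1a had 10.86, 7.78 and 7.62 in primary tumours against 9.65, 5.60 and 8.49 in metastatic ones, lower in C1M3 and C1M5 and higher in C2M3. Nr4a1 differed by 0.83 (SE 1.34) and the bile acid receptor gene Nr1h4 by 0.70 (SE 0.40). Glucocorticoid targets had a median of -0.16, with 8 of 10 lower on average, led by Zbtb16 at -0.82 (SE 0.48), Dusp1 at -0.77 (SE 0.62), Cdkn1a at -0.66 (SE 0.99) and Errfi1 at -0.37 (SE 0.22). FOXO targets had a median of -0.14, with 7 of 11 lower, and included Irs2 at -0.95 (SE 0.59), Sesn3 at 0.46 (SE 0.47), Gadd45a at -0.35 (SE 0.36) and Klf6 at -0.28 (SE 0.61). No gene of the glucocorticoid and FOXO lists had an unadjusted p under 0.05 by limma, and 0 passed after adjustment.

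All 12 HIF targets averaged lower in metastatic tumours, at a median of -0.81 and 1 gene, Adm, at an unadjusted p under 0.05. Adm, which encodes adrenomedullin, differed by -2.50 (SE 0.64), Vegfa by -1.08 (SE 1.39), the oxygen sensor gene Egln3 by -1.06 (SE 2.04) and the mitophagy gene Bnip3 by -0.99 (SE 0.59). The median within C1M5 was 0.07, against -1.34 in C1M3 and -1.08 in C2M3, and it turned to 0.25 over the groups without the metastatic tumour of C2M3. Pdk1 had its only positive difference in the same mouse, C1M5.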

How the data were processed

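The deposited values are log2 intensities per probe set, made by the authors with RMA (background correction, quantile normalization and a summary over probes) in Transcriptome Analysis Console, per the submitters' processing notes, without versions or a genome build. RMA sets a common distribution, so a shift of all genes would not show. Of 65956 non-control probe sets, 30604 carried 1 gene symbol, and the probe set with the highest mean was kept per gene. Symbols were updated through the Entrez identifier.

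All 30142 genes were fitted with limma 3.58.1 in R 4.3.3, with tissue as the only term, no filter, a two-sided test and Benjamini-Hochberg adjustment. The threshold was an adjusted p of 0.05. The standard error (SE) is the moderated one. The fit was run on simulated independent values, without mouse pairs or ties, only to check that planted mean differences came back. The 10 genes and all lists were chosen with earlier results of these data known. Named were all members, the 4 genes per list with the largest difference and the 5 genes most correlated with Pdk4 or Pcx among genes above the median level with a range of at least 1. A few others were named after their values were seen, Slc2a1 among them. Each mouse gave 1 tumour per group, per the donor labels. Deviations from group means correlated within mice with r = -0.05 (C1M3), 0.35 (C1M5) and 0.07 (C2M3). The mouse as a block was an alternative. The number of arrays limits the precision.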

Additional observations from a re-analysis of the deposited data

How the results depend on the processing

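Under all 14 alternatives, 0 genes of the whole table and 0 of the 110 pathway genes passed in limma, with a smallest adjusted p between 0.174 and 0.972. With the mouse as a block 0 genes passed, the difference of Pdk4 stayed at -1.50, and no call changed. Leaving out single arrays moved the difference of Pdk4 between -1.71 and -1.17 and that of Pcx between -3.85 and -1.73. The difference kept its sign under all 14 alternatives for Pdk2, Pdk4, Pdp2 and Pcx. It changed sign under 3 for Pdk1, 2 for Pdk3, 3 for Pdp1, 1 for Pdha1 and 5 for Mpc1, all of them near 0 beside their SE. Centring each array on its median shifted the median difference of all genes from 0.02 to -0.09 and placed Pdk4 at -1.61. With averaged probe sets the difference of Pdk4 was -1.50. The causes of these shifts were not tested.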
